A study of Mus musculus with 12 samples.

Results

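The cytosolic ribosomal protein genes are the 79 genes, of 15140 in the deposited liver count table, that the table names by the standard symbols for proteins of the large (Rpl) and small (Rps) ribosomal subunit, together with Rplp0, Rplp1, Rplp2 and Rpsa. They were chosen by symbol alone, not by measured values: 47 belong to the large subunit, counting the 3 proteins of its stalk, and 32 to the small subunit. GENCODE M21, the gene annotation of mouse build GRCm38, lists 77 of them as protein coding. It lists the other 2, Rps4l and Rpl6l, as processed pseudogenes, and they were kept because they match by spelling. Mitochondrial ribosomal proteins carry other symbols and are not members.

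The study asked how loss of prohibitin 1 in adipocytes affects the liver of obese mice. Liver mRNA was selected by its polyA tail and sequenced in 6 libraries from male mice with the adipocyte deletion of Phb1 (labelled Phb1 KO, here KO) and 6 from male wild-type mice (WT). All mice ate a high-fat diet with 60 kcal% fat for 3 months, starting at 7 to 8 weeks of age. None of the labels names the promoter that drove the deletion, the strain or the days of preparation. Because the deletion was aimed at fat cells, the genotype cannot be checked in these liver libraries.

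Total counts ran from 34121087 to 37973022 in KO libraries and from 30348123 to 40828767 in WT libraries. Summed markers of hepatocytes reached 61300 to 85500 CPM (counts scaled to a common library size by the TMM method) in KO livers and 58500 to 88600 CPM in WT livers, as the tissue label says. Summed markers of macrophages ran from 113 to 238 CPM in KO livers and from 229 to 353 CPM in WT livers. Of the 8, 3 were called lower in KO, while 2.64% of all tested genes were called in either direction. Of the genes in 9 other cell type lists 1 was called, the T cell kinase gene Lck, lower in KO. Lck ran from only 0.111 to 0.461 CPM in KO livers and from 0.527 to 1.06 CPM in WT livers. Summed markers of T and NK cells overlapped, at 3.6 to 5.38 CPM in KO livers and 3.02 to 6.62 CPM in WT livers. Counts from mitochondrial DNA took 5.86% ± 0.354 of all counts in KO livers and 5.37% ± 0.225 in WT livers (SD, 6 per group). Whether these differences play a part in the values below was not tested, and in bulk liver RNA fewer cells of a type and less RNA per cell cannot be told apart. The labels do not tie each library to its own animal, and a p-value here reflects variation among the libraries, which may be technical.

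Each ribosome holds a single copy of most ribosomal proteins, with ribosomal RNA as the catalytic core, and the cell must therefore make the proteins in nearly equal numbers. Ribosomal protein genes are expressed in every cell, and their mRNAs are abundant in most cell types. In mammals most of these mRNAs begin with a C followed by an unbroken run of pyrimidines, the terminal oligopyrimidine (TOP) tract. Through it the kinase complex mTORC1 and the RNA-binding protein LARP1 govern how much of the mRNA is translated and how stable it is, so that much of the control does not show as a change in mRNA level.

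The stretch around the annotated start site shows letters that many of these genes share. Start sites were matched for 57 of the 79 genes in the RefSeq promoter table (build GRCm38.p6). The sequences shown run from 5 bases before the start to 25 bases after it, 5′ to 3′ on the gene's strand, with runs of 6 or more pyrimidines in capitals. Shown first are Rps6, Rplp2, Rps27, Rps10 and Rpl13a, which carry such a run and are described further on.
Rps6 (chr4:86857343-86857372, minus strand): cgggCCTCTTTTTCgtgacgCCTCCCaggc
Rplp2 (chr7:141447646-141447675, plus strand): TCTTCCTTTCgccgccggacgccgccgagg
Rps27 (chr3:90213624-90213653, minus strand): tcgCTCCTTTCCggcggtgacgaCCTCCCT
Rps10 (chr17:27635220-27635249, minus strand): cgCCCCTTCCTTTCCagcctccgcctcgga
Rpl13a (chr7:45128721-45128750, minus strand): gacaagaCCTCCTCCTTTCCCaggcggctg
Shown next are Rps27l, the paralog of Rps27, and Rpl22, which have no such run in this window.
Rps27l (chr9:66946081-66946110, plus strand): ccgccgcctctatcccggaagttgctgagg
Rpl22 (chr4:152325721-152325750, plus strand): gaaaagcaatagctggccgatcgttactta

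A run of 6 or more pyrimidines stood in 31 of the 57 windows (54.4%), and the longest, of 20 bases, was in Rpl27a. Such a run stood in the same window in 24.8% of the count table's genes with a promoter sequence and in 26.2% of all promoters. The letters CTTTC or CTTTTC occurred on the gene's strand between 20 bases before and 50 after the start in 33 of the 57 members (57.9%). The same letters stood there in 9.24% of the 10899 genes of the count table with a promoter sequence and in 11% of all 27025 promoters. The letters CGGAAG, the core that ETS-family transcription factors such as GABP recognise, occurred on either strand of the 300-base promoter in 40 of the 57 members (70.2%). They occurred in 30.1% of the count table's genes and in 17.2% of all promoters. These matches describe the letters and do not show that a start site is used or a factor bound in these livers.

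No ribosomal protein gene differed between KO and WT livers past the threshold. Among the 79 members, all of which were tested, 0 were higher and 0 were lower (edgeR quasi-likelihood F test, p adjusted over 15000 genes by Benjamini-Hochberg, threshold 0.05). Of all tested genes 2.64% were called, 1.15% as higher and 1.49% as lower in KO. That share moved with single libraries: it was 0.572% without KO replicate 6, 0.306%, 0.166% and 0.592% without WT replicates 2, 4 and 5, and 4.66% without WT replicate 6. DESeq2 and limma-voom also called 0 members, while they called 8.07% and 6.09% of all genes. The lowest adjusted p of a member was 0.162 with edgeR, 0.0538 with DESeq2 and 0.102 with limma-voom. At an unadjusted p under 0.05 there were 5 members with edgeR, 7 with DESeq2 and 9 with limma-voom, whereas 21.2% of all genes lay under that value with edgeR. Without WT replicate 6, 0 members were called, 15 had an unadjusted p under 0.05 and the lowest adjusted p was 0.0697 (edgeR). By the authors' deposited table, 0 of the 79 had an adjusted p under 0.05.

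The fold changes were small as well as uncalled. The 95% interval of the KO over WT ratio lay within 1.5-fold in either direction for 76 of the 79 genes and within 1.25-fold for 71. The interval reached past 1.5-fold for Rps10, Rpl24 and Rpl29. The log2 fold change lay within 0.1 of zero for 57 genes and ranged from -0.16 for Rps27 to 0.47 for Rps10. It was measured more closely than that of a usual gene: the median standard error (SE) was 0.069 for the members and 0.137 for all tested genes.

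The fold changes were not centred on zero: 64 were positive and 15 negative, with a median of 0.052 on the log2 scale. Over all tested genes the median was 0.0031 and 50.6% were positive. Large-subunit genes had 38 positive and 9 negative values with a median of 0.061, and small-subunit genes 26 and 6 with a median of 0.041. The genes move together from library to library, as described further on, so these counts are not 79 separate observations. Without the library WT replicate 6 the median was 0.089, with 70 positive; without KO replicate 5 it was 0.016, with 51 positive. With a trend on transcript length removed it was 0.024, with 52 positive.

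**Figure D1:**
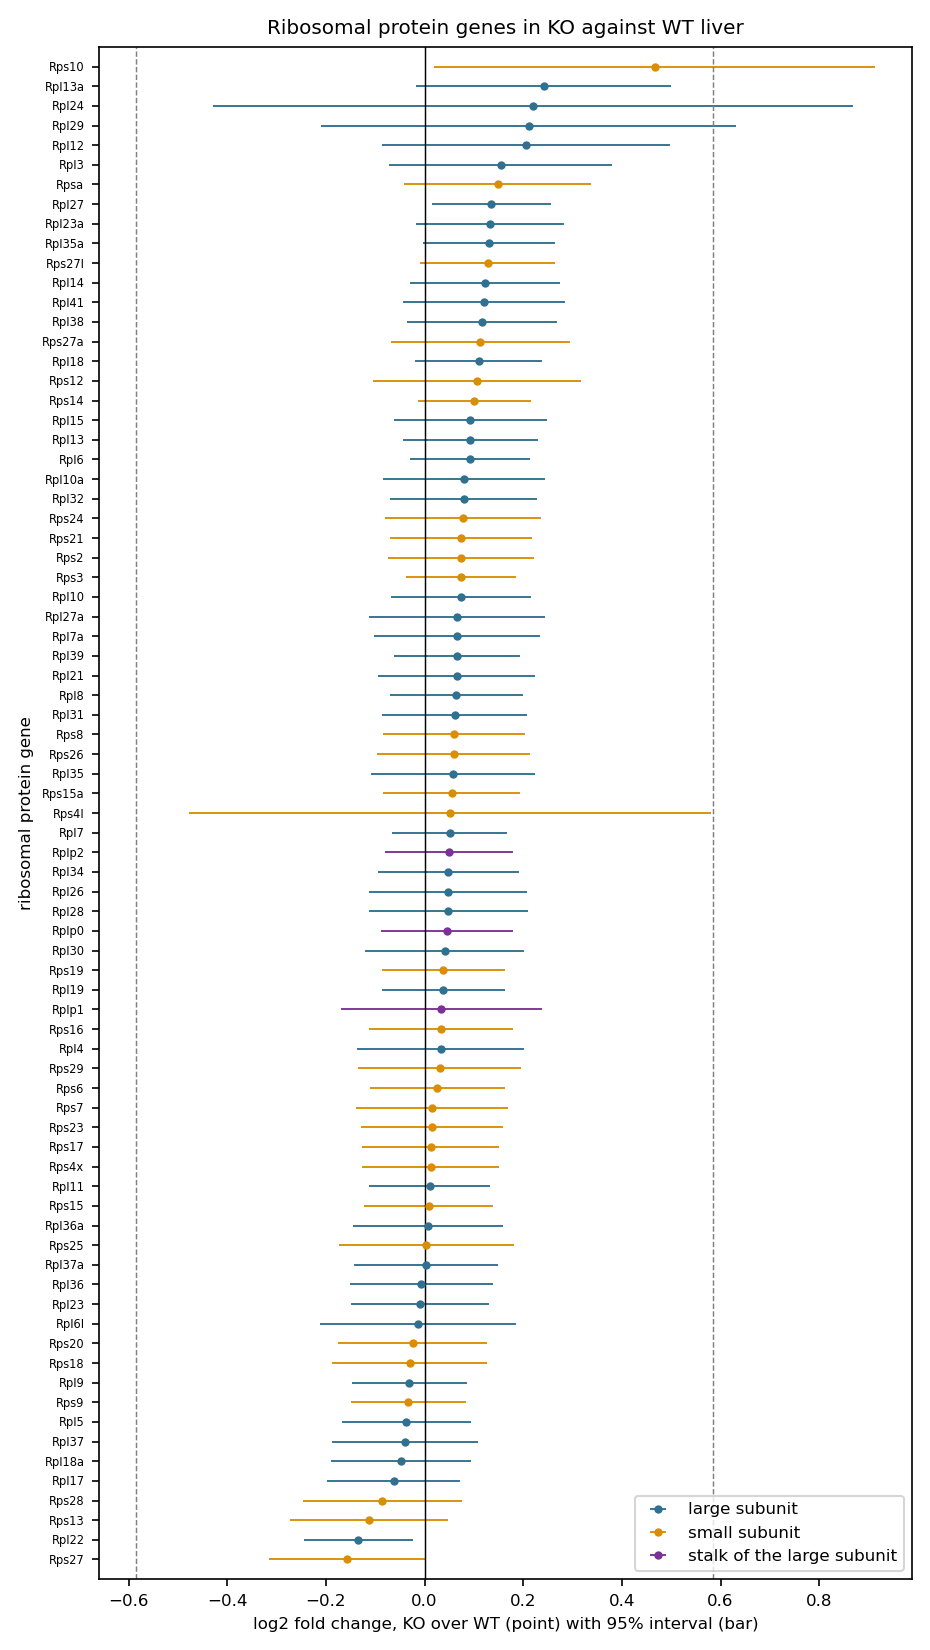
Log2 fold change, KO over WT, of 77 ribosomal protein genes, ordered by value, with 95% intervals from the edgeR fit (6 libraries per group); dashed lines mark 1.5-fold in either direction. The intervals of 74 of them lie between the dashed lines, and those of Rps10, Rpl24 and Rpl29 cross them.

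The share of the library made up of ribosomal protein mRNA overlapped between the groups. The 79 genes took 0.975% to 1.14% of all counts in KO livers with a median of 0.998%, against 0.967% to 1.09% in WT livers with a median of 0.997%. The means were 1.03% ± 0.0659 for KO and 1.006% ± 0.0458 for WT (SD over 6 libraries), so the difference was smaller than the spread in either group. The large subunit took 0.617% ± 0.0383 in KO and 0.6002% ± 0.0286 in WT, and the small subunit 0.413% ± 0.0278 in KO livers and 0.406% ± 0.0175 in WT livers (SD, n = 6 each). Counts for the large subunit were 1.495 ± 0.0183 times those for the small in KO and 1.48 ± 0.0161 times in WT. The groups overlapped in all of these measures.

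**Figure D2:**
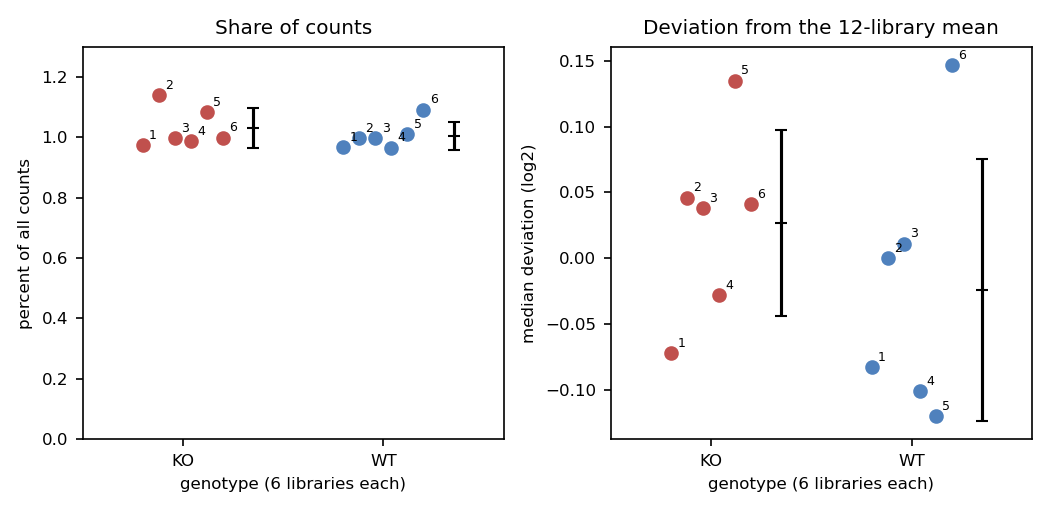
Left, percent of each library's counts that fell on the 79 genes; right, the median over the 79 genes of log2 CPM minus the gene's mean over the 12 libraries. Points are libraries with their replicate number and bars are mean ± SD (n = 6 per group); KO replicate 2 and WT replicate 6 have the highest shares in their groups, and KO and WT overlap in both panels.

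The genes varied little, and what variation there was ran largely in step. The coefficient of variation over the 12 libraries had a median of 7.7% (3.95% to 30.1%) and was under 15% for 73 genes. In KO replicate 5, 74 of the 79 genes were above their own 12-library mean, and in WT replicate 6, 72 were. In KO replicate 1, 14 were above it, and in WT replicates 4 and 5, 8 and 6 were. High and low libraries therefore occurred in both groups. The median gene deviated by 0.135 in KO replicate 5 and by 0.147 in WT replicate 6, and by -0.12 in WT replicate 5 (log2). Taking each library's median deviation out lowered the standard deviation of 70 of the 79 genes, and its median fell to 0.0671, against 0.11 before (log2). The genes that kept the widest spread were Rpl24 (0.457), Rpl29 (0.428), Rps4l (0.423) and Rps10 (0.418), with Rpl12 next at 0.197.

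**Figure D3:**
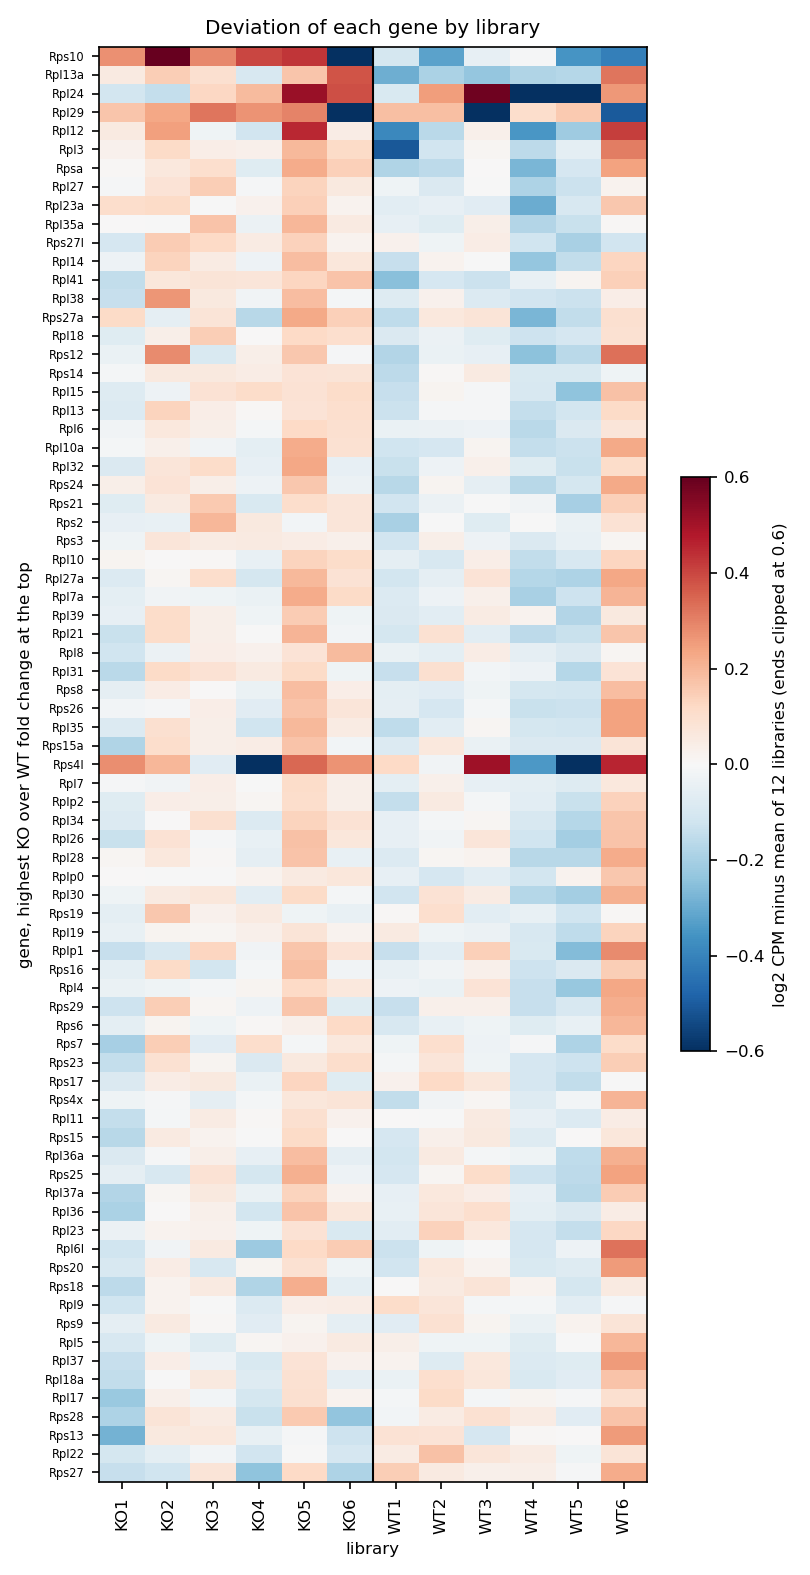
Log2 CPM of each of 77 ribosomal protein genes minus its mean over the 12 libraries, with KO libraries left of the line and WT libraries right of it, and genes ordered from the highest to the lowest KO over WT fold change. KO replicate 5 and WT replicate 6 are high across most rows, WT replicates 4 and 5 are low, and Rps10, Rpl24, Rpl29 and Rps4l follow patterns of their own.

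The proteins of the stalk, which recruits the translation factors to the large subunit, had close values in both groups. Rplp0, the base of the stalk and a common reference gene in quantitative PCR, ran from 298.9 to 314.3 CPM in KO livers with a median of 301.9, and from 277.2 to 334.6 CPM in WT livers with a median of 288.1. All KO values lay inside the WT range, and the log2 fold change was 0.045 ± 0.062 (SE; edgeR adjusted p = 0.722). Rplp1 averaged 232.8 ± 19.96 CPM in KO and 227.3 ± 32.2 CPM in WT, and Rplp2 86.9 ± 3.498 CPM in KO livers and 84.0 ± 6.49 CPM in WT livers (SD, n = 6 each). Their log2 fold changes were 0.034 and 0.050.

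Among small-subunit genes, Rps6 encodes the substrate that gives S6 kinase its name, a standard readout of mTORC1 activity at the protein level. Its mRNA ran from 179.2 to 202.5 CPM in KO livers with a median of 187.7, and from 174.6 to 214.2 CPM in WT livers with a median of 180.8. The log2 fold change was 0.026 ± 0.064 (SE; edgeR adjusted p = 0.848). Rpsa, whose protein also serves as a laminin receptor, averaged 269.5 ± 19.4 CPM in KO and 243.3 ± 32.1 CPM in WT, with a log2 fold change of 0.15 and overlapping groups. Rps27a, made as a fusion with ubiquitin, averaged 98.6 ± 9.54 CPM in KO and 91.2 ± 9.66 CPM in WT, with a log2 fold change of 0.11. Rps18, another common reference gene, had a log2 fold change of -0.030 ± 0.073 and Rps2 one of 0.074 ± 0.069 (SE).

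Rpl27 was among the 3 genes that were higher in KO at an unadjusted p under 0.05, none of which passed the adjustment. Rpl27 ran from 86.3 to 96.2 CPM in KO livers with a median of 91.2, and from 76.4 to 88.2 CPM in WT livers with a median of 83.5, a log2 fold change of 0.14 ± 0.056 (SE; edgeR adjusted p = 0.188). The ranges of the groups overlapped, as they did for every member: 0 of the 79 had KO and WT ranges apart, and 2.53% of all tested genes did. Rpl27 is named because few members reached that unadjusted p, a choice made after their values were seen.

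Rpl22 and Rps27 were the members with the lowest fold changes and the only ones lower in KO at an unadjusted p under 0.05. Rpl22 binds RNA also outside the ribosome and in mouse restrains the expression of its paralog Rpl22l1. It ran from 88.2 to 95.3 CPM in KO livers with a median of 90.6, and from 93.9 to 108.1 CPM in WT livers with a median of 99.8. In 4 of the 6 KO livers it lay below every WT liver. The fitted log2 fold change was -0.13 ± 0.052 (SE; edgeR adjusted p = 0.162; exact two-sided permutation p = 0.00649, unadjusted). Rpl22l1 itself averaged 10.9 ± 1.39 CPM in KO and 8.94 ± 2.71 CPM in WT, with a log2 fold change of 0.28 ± 0.18 (SE; edgeR adjusted p = 0.372) and overlapping groups.

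Rps27 has a paralog, Rps27l, that differs from it by few amino acids and is known from human cells as a target of p53. Rps27 ran from 74.8 to 96.4 CPM in KO livers with a median of 81.01, and from 88.3 to 103.3 CPM in WT livers with a median of 91.4. Its log2 fold change was -0.16 ± 0.073 (SE; edgeR adjusted p = 0.234). Rps27l ran from 104.5 to 124.7 CPM in KO livers with a median of 118.9, and from 98.0 to 115.3 CPM in WT livers with a median of 106.8. Its log2 fold change was 0.13 ± 0.064 (SE; edgeR adjusted p = 0.265). Each gene lay beyond every WT liver in 4 of 6 KO livers, Rps27 below and Rps27l above.

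The ratio of the paralogs separated the groups. The log2 ratio of Rps27l to Rps27 ran from 0.355 to 0.633 in KO livers with a median of 0.462, and from 0.003 to 0.348 in WT livers with a median of 0.201. The means were 0.48 ± 0.127 in KO livers and 0.19 ± 0.116 in WT livers (SD, n = 6 each). The lowest KO liver stood only just above the highest WT liver. The pair was picked as parent and paralog with results of these data known, so the separation is given as a description with no test.

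The sequences of this pair show how far their reads can be told apart. The first 90 coding bases are shown for Rps27, for Rps27rt, an intronless copy of Rps27 that is a gene of its own in the annotation, and for Rps27l, from the GENCODE M21 transcripts; capitals mark bases that differ from Rps27.
Rps27 (chr3:90212522-90213651, minus strand): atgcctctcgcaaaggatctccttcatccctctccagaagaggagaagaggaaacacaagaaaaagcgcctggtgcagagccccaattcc
Rps27rt (chr9:114982366-114982739, minus strand): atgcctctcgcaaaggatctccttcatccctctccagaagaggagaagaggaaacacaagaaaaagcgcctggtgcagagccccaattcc
Rps27l (chr9:66946086-66949516, plus strand): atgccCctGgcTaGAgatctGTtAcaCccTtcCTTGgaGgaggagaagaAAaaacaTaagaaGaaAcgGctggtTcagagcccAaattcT
Over the whole coding sequence of 255 bases Rps27rt had 0 differences from Rps27, and Rps27l had 61 (76.1% identity), 24 of them in the stretch shown. Reads from the coding part of Rps27 and Rps27rt therefore cannot be told apart by sequence. Rps27rt was given 5.28 ± 0.622 CPM in KO livers and 5.79 ± 1.99 CPM in WT livers (SD, n = 6 each), and none of the sources used here says how the counting divided reads between the identical copies.

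**Figure D4:**
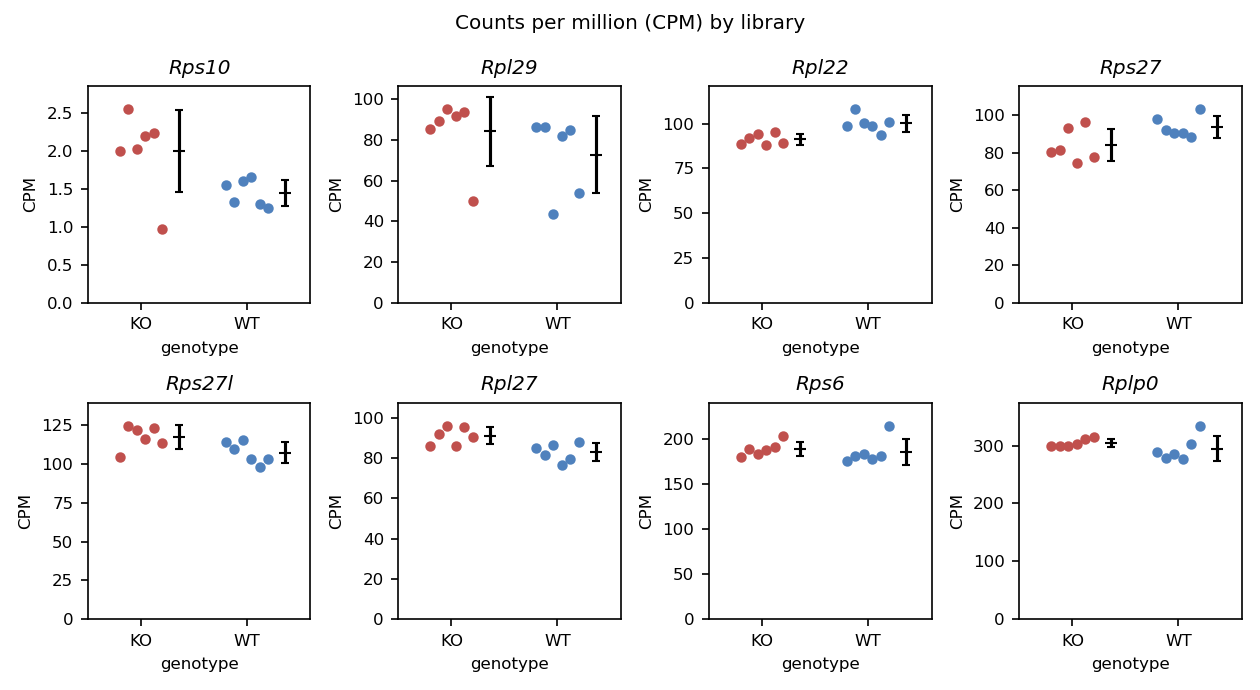
CPM by library for 8 ribosomal protein genes, KO left of WT; points are libraries and bars are mean ± SD (n = 6 per group). Rpl22 and Rps27 are lower and Rps27l and Rpl27 higher in most KO livers with overlapping ranges, Rpl29 has 1 low library in KO and 2 in WT, and Rps6 and Rplp0 lie within the WT range in every KO liver.

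Copies of this kind are the rule in the family, since ribosomal protein mRNAs have left many processed pseudogenes in mammalian genomes. Of all 50-base words of a member's main transcript, a median of 60.0% also occurred in another annotated gene, and the value was 50% or more for 51 of the 79. It was 98.6% for Rps27, 92.4% for Rps10 and 92.1% for Rpl10, against 2.96% for Rps3. The table holds 58 named ribosomal protein pseudogenes with their own counts, of which 22 averaged 100 counts or more. Exons of 11 members also overlap exons of another gene in the table on the opposite strand, such as Rps25 with Ccdc84 and Trappc4 and Rpl12 with Lrsam1. Without a stated strand setting, reads from such overlaps cannot be told apart.

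On the scale of CPM per kilobase of the main transcript, which allows for length, the median member stood at 160.4. The scale depends on the transcript chosen and on how shared reads were counted, so the ranks are approximate. Rps20, for example, averaged 97.2 CPM in KO livers and 98.9 CPM in WT livers. Divided by a main transcript of 3706 bases, it stood at 26.5. The highest levels were 461 for Rplp1, 441.4 for Rpl41, which encodes the shortest ribosomal protein, 414.9 for Rps2, 411.4 for Rpl10, which joins the large subunit late, and 325.4 for Rps18. Although their proteins are needed in like numbers, 3 members stood far below the rest: Rpl24 at 0.702, Rps10 at 3.46 and Rpl13a at 6.09 CPM per kilobase. Next came the annotated pseudogenes Rpl6l at 15.5 and Rps4l at 19.0.

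The 3 lowest members share a feature of the annotation. For each, exons of another annotated gene on the same strand cover more than 50% of the main transcript: RPS10-NUDT3 covers 91.6% of Rps10, Gm28037 covers 71.5% of Rpl24 and Gm45713 covers 59.3% of Rpl13a. These 3 covering genes were not analysed here. No other member was covered by more than 10.7%. Outside the spelling rule, Gm49383 covers 63.1% of Rpl36al, which also had few counts. None of the sources used here says how the counting treated reads in exons of overlapping genes, and its part in these low levels was not tested.

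**Figure D5:**
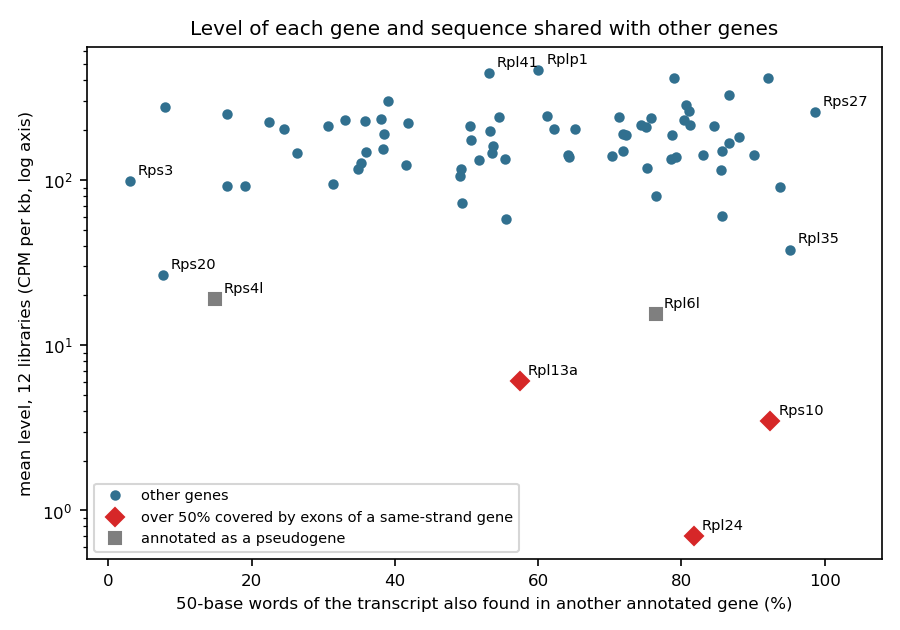
Mean level over the 12 libraries (CPM per kilobase of the main transcript, log axis) of each of 77 ribosomal protein genes against the percent of its 50-base words that occur in another annotated gene. The 3 genes covered by more than 50% by a same-strand gene (diamonds) are the lowest and the annotated pseudogenes (squares) come next.

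The same 3 genes had the 3 highest fold changes of the family. Rps10, whose protein sits near the mRNA entry channel, ran from 0.974 to 2.55 CPM in KO livers with a median of 2.11, and from 1.25 to 1.65 CPM in WT livers with a median of 1.44. It lay above every WT liver in 5 KO livers and below every WT liver in KO replicate 6. Its log2 fold change was 0.47 ± 0.21 (SE; edgeR adjusted p = 0.215; exact two-sided permutation p = 0.0887). It rested on a mean of 62.9 counts, whereas its pseudogene Rps10-ps2 (chr16:20822145-20822640) held 665 to 899 counts in KO libraries and 671 to 860 in WT libraries.

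Rpl13a, a reference gene in many PCR panels, averaged 6.91 ± 0.757 CPM in KO livers and 5.85 ± 1.006 CPM in WT livers (SD, n = 6 each), with a log2 fold change of 0.24 ± 0.12 (SE; edgeR adjusted p = 0.268). WT replicate 6 reached 7.87 CPM, and the other WT livers lay between 5.15 and 5.61. Rpl24 rested on a mean of 17.2 counts and had a log2 fold change of 0.22 ± 0.30 (SE). Without these 3 genes the highest log2 fold change in the family was 0.21 and the lowest mean count was 484.5.

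Rpl29, a large-subunit gene with 78.5% of its words shared, stood at separate levels that did not follow genotype. It ran from 50.2 to 95.2 CPM in KO livers with a median of 90.7, and from 43.6 to 86.4 CPM in WT livers with a median of 83.4. It was low in KO replicate 6 (50.2 CPM), WT replicate 3 (43.6 CPM) and WT replicate 6 (53.7 CPM), while the other 9 libraries, 5 KO and 4 WT, lay between 81.9 and 95.2 CPM. Its log2 fold change was 0.21 ± 0.19 (SE; edgeR adjusted p = 0.572). Rpl12, at the base of the stalk, averaged 96.6 ± 14.5 CPM in KO livers and 83.7 ± 18.7 CPM in WT livers (SD, n = 6 each), with a log2 fold change of 0.21 ± 0.14 (SE) and the highest values in KO replicate 5 and WT replicate 6.

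The other members named by rank or as parents of a paralog had overlapping groups. Rpl3, which lies next to the peptidyl transferase centre, averaged 212 ± 9.90 CPM in KO and 190.5 ± 34.6 CPM in WT, with a log2 fold change of 0.15. Rpl39, of the nascent-chain tunnel, had a log2 fold change of 0.065, Rpl10 one of 0.073 and Rpl41 one of 0.12. Rps13 (-0.11), Rps28 (-0.086) and Rpl17 (-0.063) followed Rps27 and Rpl22 at the low end (log2). Rps4x and the annotated pseudogene Rps4l had log2 fold changes of 0.012 ± 0.065 and 0.052 ± 0.24 (SE). Rps4l ran from 10.1 to 21.7 CPM in KO livers and from 8.67 to 24.4 CPM in WT livers. Rpl6l had a log2 fold change of -0.014 ± 0.093 (SE). The paralogs Rpl3l, Rpl39l and Rpl10l were not analysed here.

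Of the 7 ribosomal protein genes whose names the spelling rule misses, edgeR called 0. An unadjusted p under 0.05 was reached by 2 of them and by 21.2% of all genes (edgeR). DESeq2 called 2 (28.6%, against 8.07% of all genes) and limma-voom 1 (14.3%, against 6.09%), all higher in KO. Rps3a1 had a log2 fold change of -0.019 ± 0.055, Fau, whose protein is released from a ubiquitin-like fusion, -0.080 ± 0.056, and Rack1, a signalling scaffold on the small subunit, 0.054 ± 0.064 (SE). Rpl36al averaged 1.51 ± 0.339 CPM in KO and 0.818 ± 0.258 CPM in WT, with a log2 fold change of 0.88 ± 0.24 (SE). Its adjusted p was 0.0671 with edgeR, 0.0126 with DESeq2 and 0.0289 with limma-voom. Rpl36al encodes nearly the same protein as Rpl36a, whose own level is far higher, and how much sequence their transcripts share was not measured. Since Rpl36al is also covered in part by a same-strand gene, its value is uncertain. Rpl7l1, a paralog of Rpl7, averaged 68.1 ± 9.32 CPM in KO and 55.1 ± 4.52 CPM in WT, with a log2 fold change of 0.31 ± 0.090 (SE). Its adjusted p was 0.0808 with edgeR, 0.0362 with DESeq2 and 0.055 with limma-voom.

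Among genes that build the ribosome a few passed the threshold. Of 83 tested ribosome biogenesis factors, 4 were higher in KO and 0 lower (edgeR; 4.82% called, 2.64% over all genes), and 67 fold changes were positive and 16 negative with a median of 0.16 (log2). With edgeR 34 of the 83 had an unadjusted p under 0.05, against 21.2% of all genes. Nob1, the endonuclease that makes the 3′ end of 18S rRNA, averaged 13.08 ± 1.504 CPM in KO and 9.49 ± 0.508 CPM in WT (log2 fold change 0.46, edgeR adjusted p = 0.0208). Rrs1, known from yeast to bring 5S rRNA into the large subunit, averaged 28.8 ± 1.65 CPM in KO and 20.6 ± 3.16 CPM in WT (0.48, adjusted p = 0.023). Wdr75, of the complex that processes small-subunit precursors, averaged 15.2 ± 0.967 CPM in KO and 11.4 ± 1.27 CPM in WT (0.41, adjusted p = 0.0267), and Bysl, also of the small-subunit path, 19.9 ± 3.20 CPM in KO and 13.8 ± 1.89 CPM in WT (0.54, adjusted p = 0.035). All 6 KO libraries lay above all 6 WT libraries for each of the 4 genes, which were named because they were called. Ranges apart in either direction occurred in 2.53% of all tested genes. DESeq2 called 17 higher and 2 lower (22.9%, against 8.07% of all genes), and limma-voom 14 higher and 2 lower (19.3%, against 6.09%). With edgeR 0 were called higher without KO replicate 6 or any of WT replicates 2, 4 and 5, the fits in which 0.166% to 0.592% of all genes were called.

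Of 38 initiation factors edgeR called 1 lower and 0 higher in KO (2.63%, near the 2.64% over all genes), with 29 positive and 9 negative fold changes and a median of 0.096 (log2). With edgeR 15 of the 38 had an unadjusted p under 0.05, against 21.2% of all genes. Eif4b, which stimulates the helicase eIF4A, ran from 197.9 to 244.4 CPM in KO livers with a median of 222.3, and from 266.6 to 344.2 CPM in WT livers with a median of 310.2. Its log2 fold change was -0.48 ± 0.085 (SE; edgeR adjusted p = 0.0179), and without WT replicate 2 or WT replicate 4 the adjusted p was 0.0504 or 0.0506. DESeq2 called 2 of the 38 initiation factors higher and 2 lower, and limma-voom 2 higher and 1 lower. Of all genes these tools called 8.07% and 6.09%. Of 10 genes for elongation factors and related proteins edgeR called 0, with a median of 0.045 (log2). An unadjusted p under 0.05 was reached by 2 of them and by 21.2% of all genes (edgeR). DESeq2 called 1 higher and 1 lower (20%, against 8.07% of all genes), and limma-voom 1 higher (10%, against 6.09%). Eef2 moves the ribosome along the mRNA, and its own mRNA also has a TOP tract. It averaged 1281 ± 82.3 CPM in KO and 1453 ± 35.8 CPM in WT. Every KO library lay below every WT library, and 2.53% of all tested genes had ranges apart in either direction. The log2 fold change of Eef2 was -0.18 ± 0.066 (SE), with an adjusted p of 0.141 with edgeR, 0.0123 with DESeq2 and 0.0753 with limma-voom. The gene called higher by DESeq2 and limma-voom was Eef1e1, a related protein of the multi-synthetase complex. Its log2 fold change was 0.39 (adjusted p = 0.0656 with edgeR, 0.0152 with DESeq2 and 0.0312 with limma-voom).

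Among 31 regulators of mTORC1 and of TOP mRNAs 0 were called by edgeR, 17 fold changes were positive and 14 negative, and the median was 0.018 (log2). An unadjusted p under 0.05 was reached by 5 of them and by 21.2% of all genes (edgeR). DESeq2 called 2 (6.45%, against 8.07% of all genes) and limma-voom 1 (3.23%, against 6.09%), all higher. Mlst8, a subunit of mTOR complexes, had a log2 fold change of 0.40 (adjusted p = 0.0538 with edgeR, 0.00519 with DESeq2 and 0.0273 with limma-voom). Castor2, of the arginine sensor family, had 0.57 (adjusted p = 0.102 with edgeR and 0.0422 with DESeq2). Of 15 snoRNA host genes edgeR called 0, with a median of 0.029 (log2), and 6 had an unadjusted p under 0.05, against 21.2% of all genes. DESeq2 called 2 higher and 2 lower (26.7%, against 8.07% of all genes), and limma-voom 2 higher and 1 lower (20%, against 6.09%). Snhg4 had 0.72 (adjusted p = 0.0529 with edgeR, 0.0123 with DESeq2 and 0.038 with limma-voom) and Snhg15 0.74 (0.0587 with edgeR, 0.00683 with DESeq2 and 0.0296 with limma-voom, adjusted p). Of 19 genes for ribosomal protein chaperones and ribosome quality control edgeR called 0, with a median of 0.069 (log2). With edgeR 7 of the 19 had an unadjusted p under 0.05, against 21.2% of all genes. DESeq2 called 2 of the 19 higher and 1 lower, and limma-voom 2 higher, while these tools called 8.07% and 6.09% of all genes. Heatr3, a chaperone for the import of Rpl5, had 0.28 (adjusted p = 0.075 with edgeR, 0.0297 with DESeq2 and 0.0491 with limma-voom), and Ltn1, the ubiquitin ligase for stalled nascent chains, -0.28 (adjusted p = 0.098 with edgeR and 0.048 with DESeq2).

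The mitochondrial ribosomal protein genes, which encode the separate ribosome inside mitochondria, are the family most like the cytosolic one in kind and number. Of 77 tested, 4 were higher in KO and 0 lower (edgeR; 5.19% called, 2.64% over all genes): Mrpl18 (log2 fold change 0.36, edgeR adjusted p = 0.00861), Mrps31 (0.33, adjusted p = 0.0208), Mrpl16 (0.30, adjusted p = 0.0288) and Mrps14 (0.22, adjusted p = 0.0422). The median log2 fold change of the 77 was 0.097, with 62 positive and 15 negative. With edgeR 23 of the 77 had an unadjusted p under 0.05, against 21.2% of all genes. The number called was 1 without KO replicate 6 or either of WT replicates 2 and 4, 2 without KO replicate 2, without WT replicate 5 or on total counts only, and 7 with DESeq2 or limma-voom (9.09%, against 8.07% and 6.09% of all genes). Fewer genes were called over the whole table too in these edgeR fits. The share of all genes was 0.572% without KO replicate 6 and 0.306%, 0.166% and 0.592% without WT replicates 2, 4 and 5. It was 1.56% without KO replicate 2 and 1.71% on total counts only. Whether this family, the biogenesis factors and the cytosolic ribosomal protein genes differ from each other was not tested.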

How the data were processed

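Deposited values for the 12 liver libraries are raw read counts per gene, whole numbers that the authors left unscaled, judging from the file headers and the values. Beside them stands the authors' deposited comparison of KO with WT, with a log2 fold change, a test score, p-values and a mean scaled signal per gene; per the file headers, the column names are those of DESeq2. The tools named, without versions or roles, are FastQC, Trimmomatic, HISAT2, SAMtools, featureCounts and DESeq2, with build GRCm38, per the submitters' processing notes. None of the sources used here gives the strand setting, the annotation release or the treatment of shared reads.

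Of 15344 rows, 204 repeated a gene with the same counts and were left out. Differences were tested two-sided with edgeR 4.0.16 (R 4.3.3; robust quasi-likelihood F test, TMM, filterByExpr, Benjamini-Hochberg over 15000 genes, threshold 0.05). SE is the absolute unshrunk log2 fold change over the square root of F. Alternatives were DESeq2 1.42.0, limma-voom with library weights (limma 3.58.1), other scalings and filters, a replicate block, a length trend and each library left out. Positions, transcripts and lengths came from GENCODE M21 (the shortest of the best-ranked APPRIS transcripts), promoters from RefSeq.

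Tested on simulated counts for KO against WT (14941 genes), the fit found 13.4% of planted changes of 1.25-fold, 43.3% at 1.5-fold and 86.4% at 2-fold, with 6.86% of its calls false. No library looked like a duplicate: within groups, chi-square over degrees of freedom was 38.0 to 241.5 for the 30 pairs. Named genes were the 5 highest and 5 lowest members by fold change and by level per length, fixed members and paralogs, and up to 4 called genes of each other list, or else the 2 with the smallest p. Some genes that enter the counts are not reported here by name or drawn. The members and lists were chosen with earlier results of these data known.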

Additional observations from a re-analysis of the deposited data

Results flagged for a closer look

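A library was flagged where, within a group of 6, the highest or lowest value stood apart from the nearest other by a share of the group's range above the 95% critical value of Dixon's test. Of 104 groups examined 9 were flagged, where chance gives about 5.2. No cause was tested.

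In WT replicate 6, which had the highest share of counts on ribosomal protein genes in its group, 5 values stood high. Its share was 1.09%, and the other WT livers lay between 0.967% and 1.01% (gap over range 0.646). Rpl13a had 7.87 CPM there, with the others at 5.15 to 5.61 (0.832). Rps6 had 214 CPM, with the others at 175 to 183 (0.791). Rpl6l had 16.8 CPM, with the others at 12.2 to 13.4 (0.752). Rack1 had 228 CPM, with the others at 189 to 201 (0.687).

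In KO replicate 6, 2 genes stood low. Rpl29 had 50.2 CPM, with the other KO livers at 85.4 to 95.2 (0.784). Rps10 had 0.974 CPM, with the others at 2.01 to 2.55 (0.654). In KO replicate 1 Rpl41 stood low at 174 CPM, with the other KO livers at 201 to 217 (0.642). In KO replicate 4 the log2 ratio of Rps4l to Rps4x was -4.15, with the other KO livers between -3.42 and -3.10 (0.696).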

How the results depend on the processing

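The count of called ribosomal protein genes was 0 in each direction under every alternative run. For the 77 protein-coding members, or without Rps10, Rpl24 and Rpl13a (both chosen after seeing the data), it could only be 0. These are parts of the 79, of which 0 were called. At least 1 CPM in 6 libraries dropped Rpl24. The members' median log2 fold change ran from 0.016 to 0.089 with a library left out, and the difference in share of counts from 0.003 to 0.0421 percentage points. The lowest adjusted p came with the length trend removed (0.0502).

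Signs near zero turned. Rps4x was -0.002 on total counts and under the 1 CPM filter and -0.015 with the length trend removed, which also gave -0.006 for Rplp1 and -0.002 for Rps6; limma-voom gave 0.008 for Rpl6l. With a library left out the log2 fold change ran from -0.055 to 0.057 for Rpl6l, -0.011 to 0.101 for Rplp1, -0.088 to 0.168 for Rps4l, -0.015 to 0.057 for Rps4x, -0.005 to 0.072 for Rps6 and -0.039 to 0.003 for Rps3a1.

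The share of all genes called was 8.07% with DESeq2, 6.09% with limma-voom and 0.166% to 4.66% with a library left out. Biogenesis factors called higher numbered 17 with DESeq2, 14 with limma-voom and 0 to 10 with a library left out. Mitochondrial ribosomal protein genes called higher numbered 2 on total counts, 7 with DESeq2, 7 with limma-voom and 1 to 5 with a library left out. The cause was not tested.

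Correlations of same-numbered deviations ran from -0.204 to 0.362, and 3 of 6 KO libraries correlated best with their own number. Whether the replicate numbers mark pairs or batches cannot be told from these values. With the replicate block 0 members were called and 3 had an unadjusted p under 0.05. The adjusted p was then 0.0536 for Nob1, 0.0607 for Bysl and 0.0437 for Snhg15.

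Depth limits Rpl24 (mean count 17.2) and Rps10 (62.9). In the simulation most 1.25-fold changes were missed, but they were planted in genes drawn from the whole table. The median SE was 0.069 for the members and 0.137 for all tested genes, so recovery in this family was not measured. A call of 0 does not show that the levels are equal, and the 95% intervals lay within 1.25-fold for 71 of the 79 genes.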

Other observations

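Some named ribosomal protein pseudogenes varied more between libraries than any member did, with KO and WT values that overlapped. Their counts are raw and a difference by genotype was not tested. They are named here after their values were seen. Rps13-ps1 (chr8:87047689-87048226) had 358, 68, 87, 88, 410 and 310 counts in KO replicates 1 to 6 and 20, 138, 463, 38, 35 and 26 counts in WT replicates 1 to 6. It was high in 3 KO livers and 1 WT liver, and the WT counts of 20, 38, 35 and 26 lay below the lowest KO count, 68. Rps7-ps3 had 507 to 1573 counts in KO libraries and 388 to 1281 in WT libraries, and Rps27a-ps2 had 229 to 730 in KO libraries and 332 to 660 in WT libraries. Rpl14-ps1, the named pseudogene with the highest mean count (916), was steadier, with 848 to 1113 counts in KO libraries and 823 to 1003 in WT libraries.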
